A study of Rattus norvegicus with 22 samples.

Results

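The insulin-like growth factor system is described here through 10 rat genes. They are the ligands Igf1 and Igf2, the receptors Igf1r and Igf2r, and the binding proteins Igfbp2, Igfbp3, Igfbp4, Igfbp5, Igfbp6 and Igfbp7. They were taken by gene symbol from a table of raw read counts that holds 32883 genes. The study sequenced RNA from the ventral part of the cervical spinal cord (C3 to C6) of 22 Sprague-Dawley rats, with 1 library per rat, to compare animals with and without gonads in each sex. All were young adults of 3 to 4 months. In the gonadectomized (GDX) group 5 males had lost their testes 2 weeks before tissue collection, and in the ovariectomized (OVX) group 6 females had lost their ovaries at the same interval. The controls were 5 intact males and 6 intact females of like age, the females being virgin. The methods describe buprenorphine before the operations and do not describe a sham operation for the intact rats. All rats were perfused with saline, and the dorsal part of the cord was discarded.

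Each library held 12371756 to 17571887 reads in genes, with a median of 14722472. Levels are CPM, reads of a gene scaled to a common library size with edgeR's TMM factors. They are not divided by transcript length, so they are compared between rats and not between genes. A gene was called when its edgeR adjusted p, taken over all genes tested, was under 0.1. All 10 members passed the filter on low counts in every comparison. The labelled tissue carried its defining markers in every library, since the motor neuron list (Chat, Slc18a3, Slc5a7, Isl1, Mnx1 and Prph) summed to between 328 and 636 CPM.

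As background, Igf1 and Igf2 are secreted growth factors that signal through the receptor tyrosine kinase Igf1r, while Igf2r binds Igf2 and carries it to lysosomes without a kinase of its own. The binding proteins hold the ligands in tissue fluid and release them when proteases cut the complex. In the adult nervous system Igf2 and Igfbp2 are known from the meninges and the choroid plexus, and Igf1 is known as a survival factor for motor neurons.

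Intact males had the lowest group mean for 8 of the 8 ligands and binding proteins, and the highest of the 4 groups for Igf1r and Igf2r. How often intact males are lowest over all genes was not counted, and the 8 genes rose and fell together across libraries. Several libraries stood apart on these 8 genes. GDX rat 1 was the lowest GDX library for 8 of 8 and GDX rat 5 the highest for 8 of 8. Intact male 6 was the lowest intact male for 7 of 8, all but Igfbp2. Intact females 1 and 2 were the 2 lowest intact females for 8 of 8, and OVX rat 3 was the highest OVX library for 7 of 8. For the receptors GDX rat 1 was instead the highest GDX library in 2 of 2. The libraries also fall into 2 classes of average input fragment size in the study's mapping summary. All GDX and OVX libraries, intact males 2 and 5 and intact females 1 and 4 were of the shorter class. The other 7 libraries were of the longer class.

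**Figure D1:**
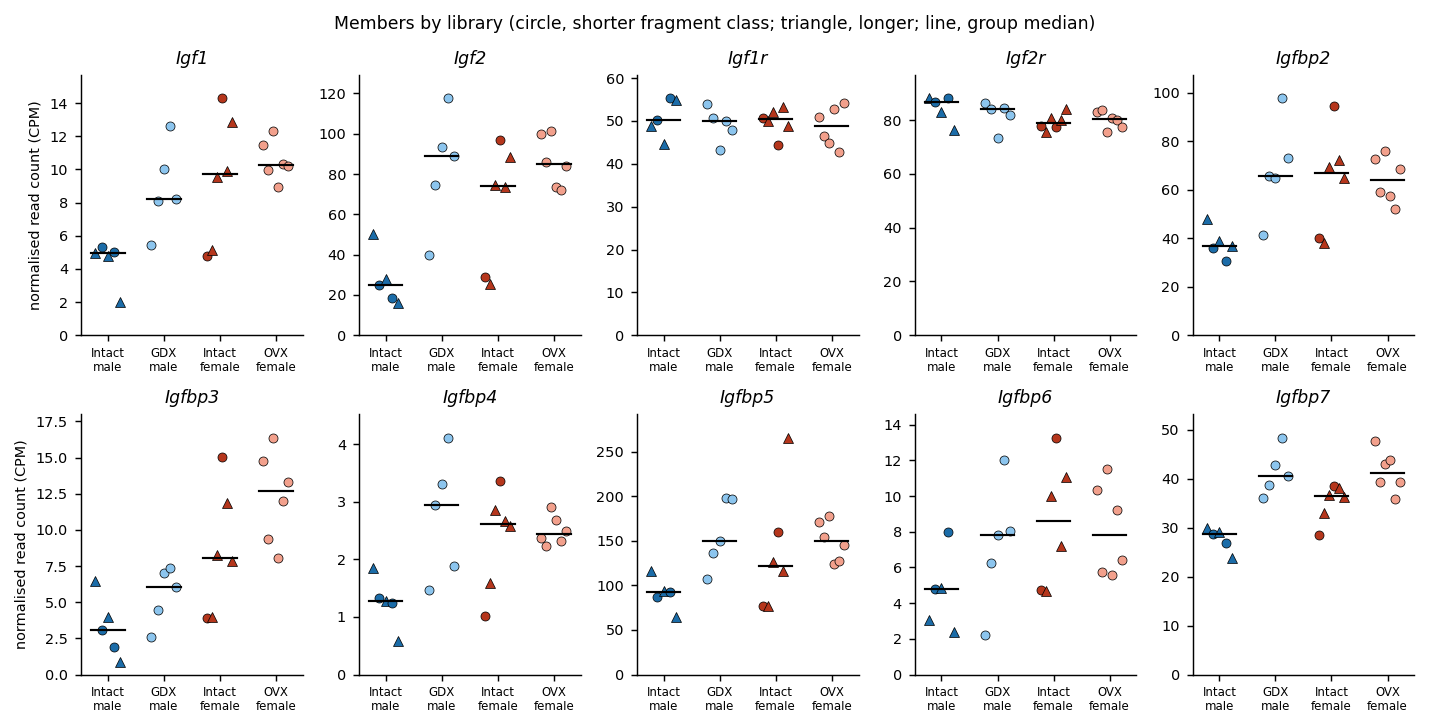
Level of each of the 10 members in CPM in every library, with 1 point per rat, circles for the shorter and triangles for the longer fragment class, and a line at the group median. Igf1 (at most 5.33 against at least 5.45 CPM) and Igfbp7 do not overlap between intact and GDX males, while the points of Igf1r and Igf2r overlap in all 4 groups. The share of all genes without overlap was not counted.

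The promoters of the ligands and of binding proteins called in males are shown as 250 bases upstream of the RefSeq gene start in build GRCr8, which is not the build of the counts (Rnor_6.0). RefSeq promoters were found for all 10 members, in 11 windows since Igf2 has 2 starts. The 7 shown include both starts of Igf2. Igf1 lies at chr7:24172282-24172531 on the plus strand, Igf2 start 1 at chr1:207253981-207254230 and start 2 at chr1:207250476-207250725 on the minus strand, Igfbp5 at chr9:81914188-81914437 on the minus strand, Igfbp2 at chr9:81864561-81864810, Igfbp4 at chr10:84491221-84491470 and Igfbp7 at chr14:31091486-31091735, these last on the plus strand. Capitals mark matches to the motifs searched, with none in Igf2 start 1 and Igfbp5, and each sequence reads 5′ to 3′ towards the start.
Igf1: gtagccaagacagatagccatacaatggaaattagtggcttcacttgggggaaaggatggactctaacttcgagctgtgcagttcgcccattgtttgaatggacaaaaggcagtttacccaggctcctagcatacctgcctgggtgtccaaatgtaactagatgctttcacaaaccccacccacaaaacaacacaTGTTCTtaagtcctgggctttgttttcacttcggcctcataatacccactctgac
Igf2 start 1: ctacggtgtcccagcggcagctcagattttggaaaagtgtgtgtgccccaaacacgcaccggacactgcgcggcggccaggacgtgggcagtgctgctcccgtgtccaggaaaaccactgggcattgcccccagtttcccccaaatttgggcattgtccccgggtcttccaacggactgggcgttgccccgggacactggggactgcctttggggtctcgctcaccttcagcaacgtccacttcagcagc
Igf2 start 2: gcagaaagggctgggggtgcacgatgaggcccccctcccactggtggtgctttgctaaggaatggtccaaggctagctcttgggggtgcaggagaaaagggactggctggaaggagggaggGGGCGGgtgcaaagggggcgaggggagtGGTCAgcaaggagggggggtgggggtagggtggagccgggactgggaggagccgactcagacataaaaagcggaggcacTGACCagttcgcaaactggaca
Igfbp2: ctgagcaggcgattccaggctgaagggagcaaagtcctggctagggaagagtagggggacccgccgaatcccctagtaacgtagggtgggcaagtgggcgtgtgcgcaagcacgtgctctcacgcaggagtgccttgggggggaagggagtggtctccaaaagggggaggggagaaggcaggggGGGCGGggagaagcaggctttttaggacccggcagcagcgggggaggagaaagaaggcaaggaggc
Igfbp4: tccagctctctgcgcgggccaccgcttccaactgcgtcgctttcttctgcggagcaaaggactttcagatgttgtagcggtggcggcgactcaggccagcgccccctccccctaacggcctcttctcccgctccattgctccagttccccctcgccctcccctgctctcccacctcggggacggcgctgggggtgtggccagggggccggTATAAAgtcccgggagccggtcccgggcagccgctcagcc
Igfbp5: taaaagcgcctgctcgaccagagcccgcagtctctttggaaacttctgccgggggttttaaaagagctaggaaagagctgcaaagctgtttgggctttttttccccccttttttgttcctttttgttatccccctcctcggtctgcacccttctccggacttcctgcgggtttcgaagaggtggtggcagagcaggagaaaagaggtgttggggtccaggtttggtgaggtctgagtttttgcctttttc
Igfbp7: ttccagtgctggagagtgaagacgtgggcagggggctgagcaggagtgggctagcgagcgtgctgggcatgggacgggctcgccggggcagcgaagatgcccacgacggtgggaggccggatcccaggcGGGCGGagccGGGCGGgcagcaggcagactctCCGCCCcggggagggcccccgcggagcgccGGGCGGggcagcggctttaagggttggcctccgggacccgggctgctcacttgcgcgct

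The motifs were searched on both strands. GGTCA, the short estrogen receptor motif, stood in 2 of the 11 member windows, Igf2 start 2 and Igf2r, and in 35.4% of the 33469 RefSeq windows. AGAACA, the short androgen receptor motif, stood in 2, Igf1 and Igfbp6, and in 17.5% of all. The GC box GGGCGG stood in 5, Igf2 start 2, Igf1r, Igf2r, Igfbp2 and Igfbp7, and in 30.5% of all. The TATA box TATAAA stood in 1, Igfbp4, and in 12.9% of all. The full estrogen response element pairs GGTCA and TGACC across 3 unfixed bases, and the full androgen and glucocorticoid response element pairs AGAACA and TGTTCT in the same way. These stood in 0 of the 11 member windows, and in 0.0239% and 0.012% of all windows. Each short motif also occurs inside its full element. A match describes letters and not a bound site.

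Males with and without testes were compared to ask how the members differ after castration. Of the 10 members 6 were called higher in GDX than in intact males and 0 lower, where 13.4% of 14931 genes were called in either direction and 6.78% were called up. The 6 were Igf1, Igf2, Igfbp2, Igfbp4, Igfbp5 and Igfbp7. The median log2 fold change of the members was 0.78, beside 0.00 for all genes. Without GDX rat 5 the count over all genes was 1202 in place of 1995, and the count of members was 5. Without GDX rat 1 and intact male 6, the libraries farthest from their group's median on the meninges markers and a setting chosen after seeing the data, 6 members and 2176 of all genes were called.

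Igf1 (ENSRNOG00000004517), the growth factor that growth hormone drives in liver and that many tissues also make, had 4.96, 5.33, 4.76, 5.01 and 2.04 CPM in intact males 1, 2, 3, 5 and 6. In GDX males 1, 2, 4, 5 and 6 it had 5.45, 8.09, 10.1, 12.6 and 8.22 CPM. Every GDX male lay above every intact male, GDX rat 1 by a narrow margin and GDX rat 5 by the widest. The log2 fold change was 1.01 (SE 0.24, 95% interval 0.49 to 1.52, edgeR adjusted p 0.0200). In bulk tissue fewer cells of a type and less RNA per cell cannot be told apart.

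Igf2 (ENSRNOG00000020369), the ligand of both receptors, had 50.2, 24.7, 27.7, 18.6 and 15.8 CPM in intact males 1, 2, 3, 5 and 6. GDX males 1, 2, 4, 5 and 6 had 39.8, 74.4, 93.6, 118 and 89.1 CPM. The groups overlapped through 2 libraries, since intact male 1 lay above GDX rat 1, and the other 4 GDX males were above all intact males. The log2 fold change of 1.60 (SE 0.29, edgeR adjusted p 0.00678) was the largest of any member in males.

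The receptors were not called in males. Igf1r (ENSRNOG00000014187), the kinase through which the ligands signal, had 48.9, 50.2, 44.7, 55.3 and 54.8 CPM in intact males 1, 2, 3, 5 and 6. GDX males 1, 2, 4, 5 and 6 had 54.0, 50.8, 43.3, 50.1 and 47.9 CPM. These ranges lay over each other, and the log2 fold change was -0.05 with a 95% interval of -0.19 to 0.10 (edgeR adjusted p 0.742). Igf2r (ENSRNOG00000014997), the mannose-6-phosphate receptor that clears Igf2, ran from 76.2 to 88.1 CPM in intact and from 73.4 to 86.3 CPM in GDX males. Its log2 fold change was -0.04 with an interval of -0.16 to 0.08 (edgeR adjusted p 0.706).

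Among the binding proteins Igfbp7 (ENSRNOG00000002050), a low-affinity relative found in vessel walls, separated the male groups by the smallest p. It had 29.99, 28.7, 29.0, 26.8 and 23.9 CPM in intact males 1, 2, 3, 5 and 6. GDX males 1, 2, 4, 5 and 6 had 36.1, 38.8, 42.8, 48.4 and 40.5 CPM. The groups did not overlap, with GDX rat 5 highest and intact male 6 lowest. The log2 fold change was 0.58 (SE 0.08, edgeR adjusted p 0.00303), and the gene ranked 16 of 14931 by p.

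Igfbp2 (ENSRNOG00000016957), a binding protein of cerebrospinal fluid, had 47.9, 35.8, 38.8, 30.4 and 37.0 CPM in intact males 1, 2, 3, 5 and 6 and 41.3, 65.7, 64.7, 97.8 and 73.1 CPM in GDX males 1, 2, 4, 5 and 6. GDX rat 1 lay below intact male 1, and the other 4 GDX males were above all intact males. Its log2 fold change was 0.85 (SE 0.17, edgeR adjusted p 0.00968). Igfbp5 (ENSRNOG00000017206), which binds extracellular matrix, had 116, 86.9, 94.0, 92.2 and 64.9 CPM in those intact males and 107, 136, 149.9, 198 and 197 CPM in those GDX males. Again GDX rat 1 alone fell within the intact range. For it the log2 fold change was 0.80 (SE 0.16, edgeR adjusted p 0.0100).

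Igfbp4 (ENSRNOG00000010635), an inhibitor of ligand action, was read thinly, with 9 reads in intact male 6 and 58 in GDX rat 5. It had 1.84, 1.33, 1.28, 1.24 and 0.591 CPM in intact males 1, 2, 3, 5 and 6. GDX males 1, 2, 4, 5 and 6 had 1.46, 2.95, 3.31, 4.12 and 1.89 CPM. GDX rat 1 lay inside the intact range and GDX rat 6 just above it. Its fitted log2 fold change was 1.12 (SE 0.31, edgeR adjusted p 0.0394), and without GDX rat 5 the call was lost (log2 fold change 0.94, adjusted p 0.113).

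The other binding proteins were not called in males. Igfbp3 (ENSRNOG00000061910), the chief carrier of the ligands in blood, ran from 0.854 CPM in intact male 6 to 6.45 in intact male 1, and from 2.59 to 7.38 CPM in GDX males. Its log2 fold change was 0.76 (SE 0.39, edgeR adjusted p 0.255), and it was called without intact male 1 (1.17, adjusted p 0.0900). Igfbp6 (ENSRNOG00000010977), which prefers Igf2, ran from 2.36 to 7.98 CPM in intact and from 2.19 to 11.996 CPM in GDX males. Its log2 fold change was 0.64 (SE 0.36, edgeR adjusted p 0.303), and it was called without GDX rat 1 (0.87, adjusted p 0.0660).

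Markers of the meninges and of fibroblasts moved with the members in males. Of this list 12 of 12 genes tested were called higher in GDX males, with a median log2 fold change of 1.55. Its 14 genes in the table summed to 193, 146, 150.2, 112 and 92.6 CPM in intact males 1, 2, 3, 5 and 6 and to 187, 275, 395, 539 and 437.5 CPM in GDX males 1, 2, 4, 5 and 6. Intact male 6 was again the lowest and GDX rat 5 the highest. Col1a1 was the most abundant gene, and Ogn was at 0 in 5 libraries while the other 13 genes were read in all 22. On the mean log2 scale used as a term in the fit, the male groups did not overlap, with 1.53 to 2.30 in intact and 2.61 to 3.96 in GDX males. With that term in the edgeR fit 0 of 10 members were called in males, and 4 of all genes. The log2 fold changes then were -0.03 for Igf1, 0.10 for Igf2, -0.06 for Igfbp2, 0.06 for Igfbp4, -0.12 for Igfbp5 and 0.18 for Igfbp7, with adjusted p between 0.950 and 0.997 for these 6. Of the members not called, Igfbp3 then had -1.07, Igfbp6 -0.73 and Igf1r 0.14, each with its sign changed. Since the list separated the groups, castration and this term cannot be told apart in males, and the part of the meninges in the result was not tested.

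**Figure D2:**
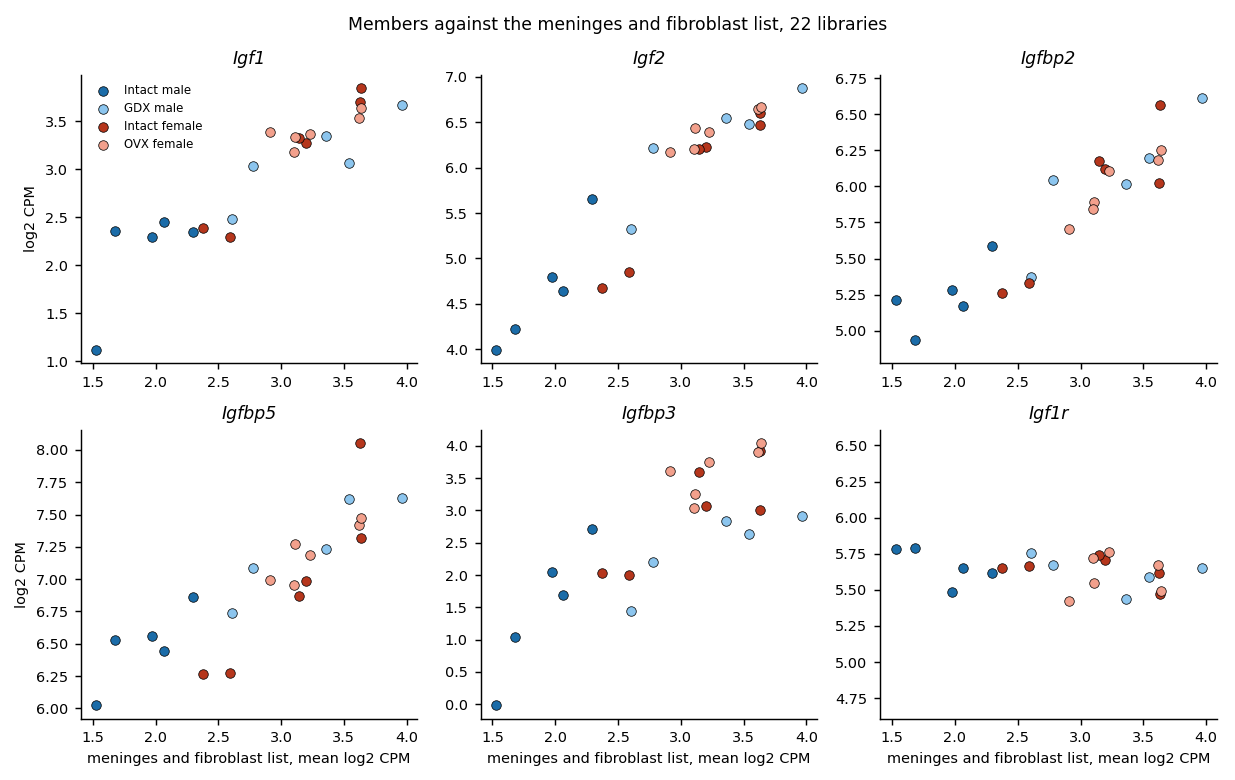
Log2 CPM of Igf1, Igf2, Igfbp2, Igfbp5, Igfbp3 and Igf1r in each library against the average level of the markers for meninges and fibroblasts (log2 CPM), coloured by group. The ligands and binding proteins rise with the list and Igf1r does not, with intact males at 1.53 to 2.30 and GDX males at 2.61 to 3.96 on the list.

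Other markers also differed between the male groups, where 13.4% of all genes were called. Of 8 endothelial genes tested 7 were called up (median 0.49), of 8 pericyte and smooth muscle genes 5 (0.48), of 6 astrocyte genes 2, Gfap and Aqp4 (0.14), and of 5 oligodendrocyte genes 1, Mbp (0.07). Called down were 1 of 6 motor neuron genes, Slc18a3, and 2 of 4 neuronal genes, Rbfox3 and Snap25. With 1 gene called in each, the motor neuron and oligodendrocyte lists had shares near that of all genes. Of 7 microglial and 2 skeletal muscle genes 0 were called by edgeR. The endothelial list summed to 111 to 156 CPM in intact and 172 to 223 CPM in GDX males, with Flt1 the most abundant. The pericyte list summed to 114 to 147 and 161 to 189 CPM, with Myh11 the most abundant. Their part in the members' values was not tested.

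Fragment class is confounded with castration, since all GDX libraries were of the shorter class. Intact males 2 and 5, also of that class, had 24.7 and 18.6 CPM of Igf2 against at least 39.8 CPM in GDX males. The gap was narrow for Igf1 (5.33 and 5.01 against at least 5.45 CPM) and Igfbp4 (1.33 and 1.24 against at least 1.46 CPM). For Igfbp6 both rats (4.81 and 7.98 CPM) lay inside the GDX range, and for Igfbp3 intact male 2 did (3.11 CPM). With class as a term in edgeR, Igf2 (1.94, adjusted p 0.0547), Igfbp2 (adjusted p 0.0547), Igfbp5 (0.0807) and Igfbp7 (0.0546) were called and Igf1 (0.78, adjusted p 0.202) and Igfbp4 (1.09, adjusted p 0.200) were not. With shorter libraries alone Igf2 (adjusted p 0.0857), Igfbp2 (0.0859), Igfbp5 (0.0889) and Igfbp7 (0.0857) were called, and Igf1 (0.78, adjusted p 0.164) and Igfbp4 (1.09, adjusted p 0.195) were not, with 2 intact males left. The fit with class as a term compares GDX rats with those same 2 intact males, so it is not a separate check. Igfbp6, not called in any of these fits, had a log2 fold change of 0.17 with shorter libraries alone. Longer against shorter libraries within intact rats gave 0 of 10 members called and 0% of 15723 genes. At an unadjusted p under 0.05 edgeR counted 0 members and 1218 genes there, and DESeq2 called 0 members.

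**Figure D3:**
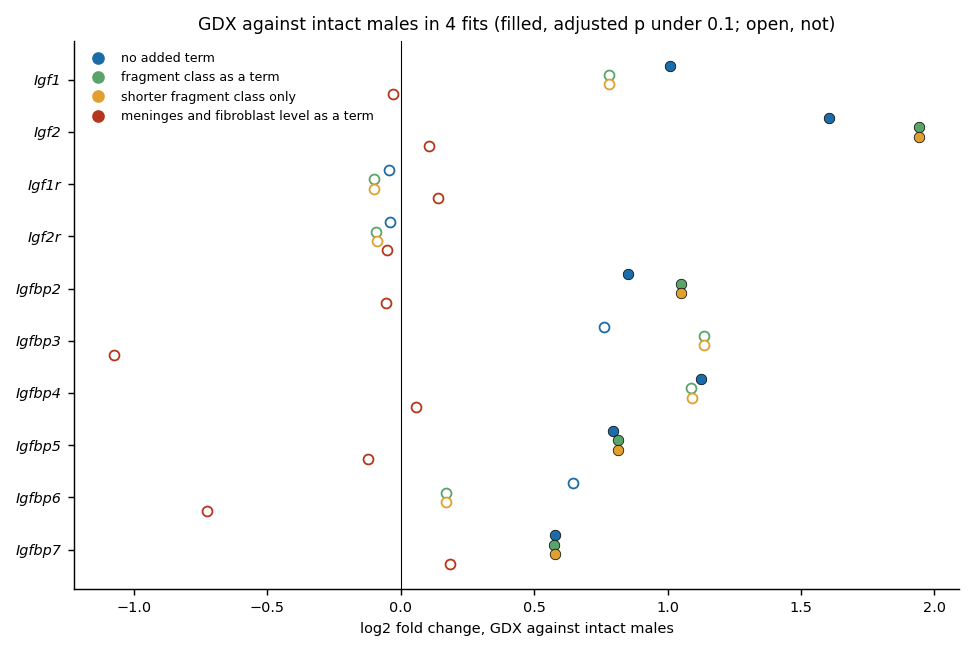
Log2 fold change of each member, GDX against intact males, under 4 edgeR fits, with filled points called at an adjusted p under 0.1. The 6 members called without an added term keep their direction with fragment class as a term or with shorter libraries alone, and lie between -0.12 and 0.18 once the meninges list is a term. Since all GDX libraries are of the shorter class, both class fits rest on the same 2 intact males and are not separate checks.

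Females with and without ovaries were compared in the same way, and 0 of 10 members were called by edgeR, where 0.0335% of 14910 genes were. At an unadjusted p under 0.05 there was 1 of 10 members, Igfbp7, beside 1516 of all genes, a share of members near that of all genes. DESeq2 and the edgeR exact test also called 0 members. The median log2 fold change of the members was 0.12, beside 0.00 for all genes. Igfbp7 had a lowest, median and highest level of 28.6, 36.6 and 38.4 CPM in intact and 35.8, 41.2 and 47.6 CPM in OVX females. Of the 6 OVX females 5 lay above all intact females, and OVX rat 5 lay inside the intact range. The log2 fold change was 0.25 (SE 0.08, 95% interval 0.09 to 0.41, edgeR adjusted p 0.271).

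Among the ligands in females, Igf1 had a lowest, median and highest level of 4.79, 9.71 and 14.3 CPM in intact and 8.92, 10.3 and 12.3 CPM in OVX rats. All OVX values lay inside the intact range, and the log2 fold change was 0.18 with a 95% interval of -0.27 to 0.63. Igf2 had 25.5, 74.2 and 97.0 CPM in intact and 71.9, 85.0 and 101 CPM in OVX females. Its low intact values came from rats 1 and 2, and the log2 fold change was 0.42 with an interval of -0.11 to 0.96 (edgeR adjusted p 0.610). For the receptors the lowest, median and highest levels were 44.3, 50.4 and 53.4 CPM of Igf1r in intact and 42.8, 48.8 and 54.3 CPM in OVX females. Igf2r had 75.5, 78.9 and 84.0 CPM in intact and 75.5, 80.4 and 83.8 CPM in OVX females, so neither receptor separated these groups.

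Of the binding proteins in females, Igfbp2 had 38.3, 67.1 and 94.5 CPM in intact and 52.0, 64.0 and 76.1 CPM in OVX rats as lowest, median and highest. Igfbp5 had 76.8, 122 and 266 CPM in intact and 124, 150.0 and 178 CPM in OVX rats. The OVX rats again sat inside the wider intact range. Igfbp4 had 1.01, 2.62 and 3.36 CPM in intact and 2.23, 2.43 and 2.92 CPM in OVX rats. Igfbp6 had 4.71, 8.62 and 13.3 CPM in intact and 5.58, 7.81 and 11.5 CPM in OVX rats. Igfbp3 had the largest log2 fold change of any member in females, 0.55 (SE 0.28, edgeR adjusted p 0.524). Its levels were 3.88, 8.08 and 15.0 CPM in intact and 8.03, 12.7 and 16.4 CPM in OVX rats, with 5 of 6 OVX rats above the intact median and the ranges overlapping. OVX females had the smallest coefficient of variation of the 4 groups for 7 of the 8 ligands and binding proteins. How many of all genes share this was not counted, and the intact groups held both fragment classes. The lowest, median and highest sums of the meninges list were 159.6, 317 and 441 CPM in intact and 261, 344 and 458 CPM in OVX females. Of its 13 genes tested 0 were called by edgeR in females. The endothelial list had 8 of 8 genes above 0 (median log2 fold change 0.43) and 1 called up, Kdr (0.77, adjusted p 0.0966), and summed to between 110.4 and 206 CPM in intact and 181 and 257 CPM in OVX females. The pericyte list had 8 of 8 genes above 0 (median 0.26) and the motor neuron list 0 of 6 (median -0.38), with 0 called in either. Microglial genes lay above 0 in 7 of 7 (median 0.11) and skeletal muscle genes in 3 of 3 (median 1.69), with 0 called. The skeletal muscle list summed to between 2.91 and 11.2 CPM in intact females. OVX rats 1 and 4 had 32.8 and 51.0 CPM of it, and the OVX median was 6.36 CPM. The part of these lists in the members' values was not tested.

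Whether the male and female responses differ was tested on all 22 rats. Of the 10 members 0 were called by edgeR for this difference, where 0.116% of 15562 genes were, and 5 members had an unadjusted p under 0.05, beside 1810 of all genes. DESeq2 also called 0 members. The difference in log2 fold change was 1.18 for Igf2 (SE 0.43, adjusted p 0.265), 0.82 for Igfbp2 (SE 0.28, adjusted p 0.224), 0.34 for Igfbp7 (SE 0.12, adjusted p 0.247), 0.83 for Igf1 (adjusted p 0.347) and 1.02 for Igfbp4 (adjusted p 0.309). A call in males beside none in females is therefore not shown to be a difference between the sexes. Without GDX rat 1 Igfbp2 was called (0.96, adjusted p 0.0857). With the library of each group farthest from its median on the meninges list left out, a setting chosen after seeing the data, Igfbp2 (1.11, adjusted p 0.0386) and Igf2 (1.43, adjusted p 0.0588) were called, where 526 of all genes were. With the meninges list as a term 0 members were called, and the differences were -0.13 for Igfbp2, -0.36 for Igf2 and -0.31 for Igf1. Of that list's own genes 13 of 13 had a difference above 0, with a median of 1.31 and 0 called, and its part in the members' differences was not tested.

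Intact males and intact females were compared to see how the members differ while the gonads are present, sharing those control rats with the comparisons above. Of the 10 members 4 were called lower in males and 0 higher, where 4.01% of 14937 genes were called in either direction and 2.56% down. The median log2 fold change of the members was -0.80, beside 0.00 for all genes. Igfbp7 fell from a median of 36.6 CPM in females to at most 29.99 CPM in males (log2 fold change -0.34, SE 0.08, edgeR adjusted p 0.0291). Igf1 (-1.08, SE 0.29, adjusted p 0.0664), Igf2 (-1.24, SE 0.35, adjusted p 0.0814) and Igfbp2 (-0.73, SE 0.19, adjusted p 0.0636) were the others. Igf1, Igf2 and Igfbp2 overlapped between the sexes through the low intact females 1 and 2, and Igfbp7 through intact female 1.

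Of these calls between intact rats only that of Igfbp7 was kept with each of the 11 rats left out in turn. Igf1 lost its call without intact male 1, 2, 5 or 6 or intact female 3, 4, 5 or 6 (adjusted p 0.101 to 0.138). Igf2 lost it without intact male 2, 3, 5 or 6 or intact female 3, 4, 5 or 6 (0.125 to 0.182), and Igfbp2 without intact male 2, 5 or 6 or intact female 3, 4, 5 or 6 (0.112 to 0.153). Igfbp3, with 0.854 to 6.45 CPM in males and 3.88, 8.08 and 15.0 CPM as lowest, median and highest in females, had a log2 fold change of -1.38 (SE 0.42, edgeR adjusted p 0.112). It was called without intact male 1 (adjusted p 0.0605), intact female 1 (0.0535) or intact female 2 (0.0664), and also by the edgeR exact test (0.0505), without a filter (0.0727) and with all 22 rats in 1 fit (0.0545). Igfbp4 was called without intact female 1 (0.0521), and Igfbp6 without intact male 5 (0.0882) or intact female 1 (0.0953). Without intact male 1 the count over all genes was 352 in place of 599, and without intact male 5 it was 385.

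The meninges list was also lower in intact males, with 10 of 12 genes tested called down (median -1.25). Of 8 endothelial genes 1 was called down, Cdh5, and Snap25 was called up among 4 neuronal genes. On the mean log2 scale the intact sexes did not overlap on the meninges list, with 1.53 to 2.30 in males and 2.38 to 3.63 in females. Sex and the list as a term therefore cannot be told apart. With the meninges list as a term 0 of 10 members were called by edgeR between intact sexes. The log2 fold changes then were 0.44 for Igf1, 0.80 for Igf2, 0.29 for Igfbp2 and -0.03 for Igfbp7, and Igfbp3, Igfbp4, Igfbp5 and Igfbp6 also turned positive (0.59, 0.45, 0.87 and 0.30). With shorter libraries alone, which leaves 2 intact rats a sex, 0 members were called, with log2 fold changes of -0.86 for Igf1, -1.52 for Igf2, -1.01 for Igfbp2 and -0.27 for Igfbp7. The part of these markers in the difference was not tested.

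Gonadectomized males and females, all of the shorter fragment class, differed in 1 member. Igfbp3 had 2.59, 4.45, 7.02, 7.38 and 6.07 CPM in GDX males 1, 2, 4, 5 and 6 and a lowest, median and highest level of 8.03, 12.7 and 16.4 CPM in OVX females. All GDX males lay below all OVX females. The log2 fold change was -1.16 (SE 0.23, 95% interval -1.65 to -0.67, edgeR adjusted p 0.0638), where 0.232% of 15084 genes were called. The call was lost without GDX rat 2 (adjusted p 0.134) or 6 (0.161), or without OVX rat 1 (0.148), 3 (0.134), 5 (0.123) or 6 (0.156), with log2 fold changes from -1.20 to -1.06, and in the fit of all 22 rats (-1.16, adjusted p 0.212). On the meninges list the mean log2 level was 3.25 in GDX males (2.61 to 3.96) and 3.27 in OVX females (2.91 to 3.64). With that list as a term the log2 fold change of Igfbp3 was -1.18 (edgeR adjusted p 0.000793), and more of all genes were called than without it. Of other lists, 1 of 8 endothelial genes (median log2 fold change -0.14) and 0 of 2 skeletal muscle genes (-1.32) lay above 0. Microglial genes lay above 0 in 5 of 7 (0.08), and 0 genes of these 3 lists were called. The part of the meninges and of other cell types in this difference was not tested.

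**Figure D4:**
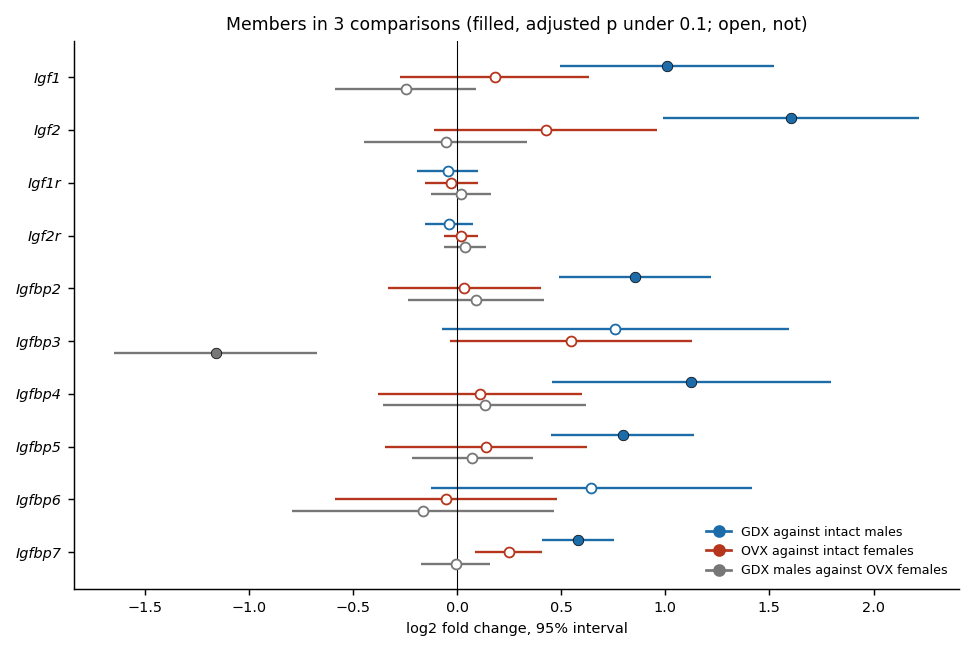
Log2 fold change of each member with its 95% interval for GDX against intact males, OVX against intact females and GDX males against OVX females, where filled points are called at an edgeR adjusted p under 0.1. Filled are 6 members in the male comparison, 0 in the female one and Igfbp3 alone in the last.

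Across the 22 libraries, after the mean of each group was taken away, the ligands and binding proteins rose and fell together. These correlations are descriptions, since all genes read in the same library share its depth and tissue composition. The 28 pairs among those 8 genes had Pearson r from 0.60 to 0.90 with a median of 0.77. The highest was Igf2 with Igfbp2 (r 0.90, Spearman rho 0.87, r 0.85 without the 2 farthest libraries). The 17 pairs with a receptor ran from -0.50 to 0.35 with a median of 0.02. Against the meninges list r was 0.90 for Igf2 (rho 0.91, r 0.85 without the 2 farthest libraries), 0.88 for Igfbp2, 0.87 for Igfbp5, 0.83 for Igf1, 0.82 for Igfbp7, 0.79 for Igfbp3 and 0.71 for Igfbp4 and Igfbp6. Within single groups r with the list ran from 0.88 to 0.97 for Igf2, from 0.70 to 0.98 for Igf1, from 0.48 to 0.88 for Igfbp4 and from -0.04 to 0.96 for Igfbp6. The median over 15549 genes was 0.00, and 101 genes exceeded 0.8. Igf2r (0.15) and Igf1r (-0.33) did not follow the list, and Igf1r instead rose with the pericyte (0.68, rho 0.73) and endothelial (0.66, rho 0.63) lists.

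**Figure D5:**
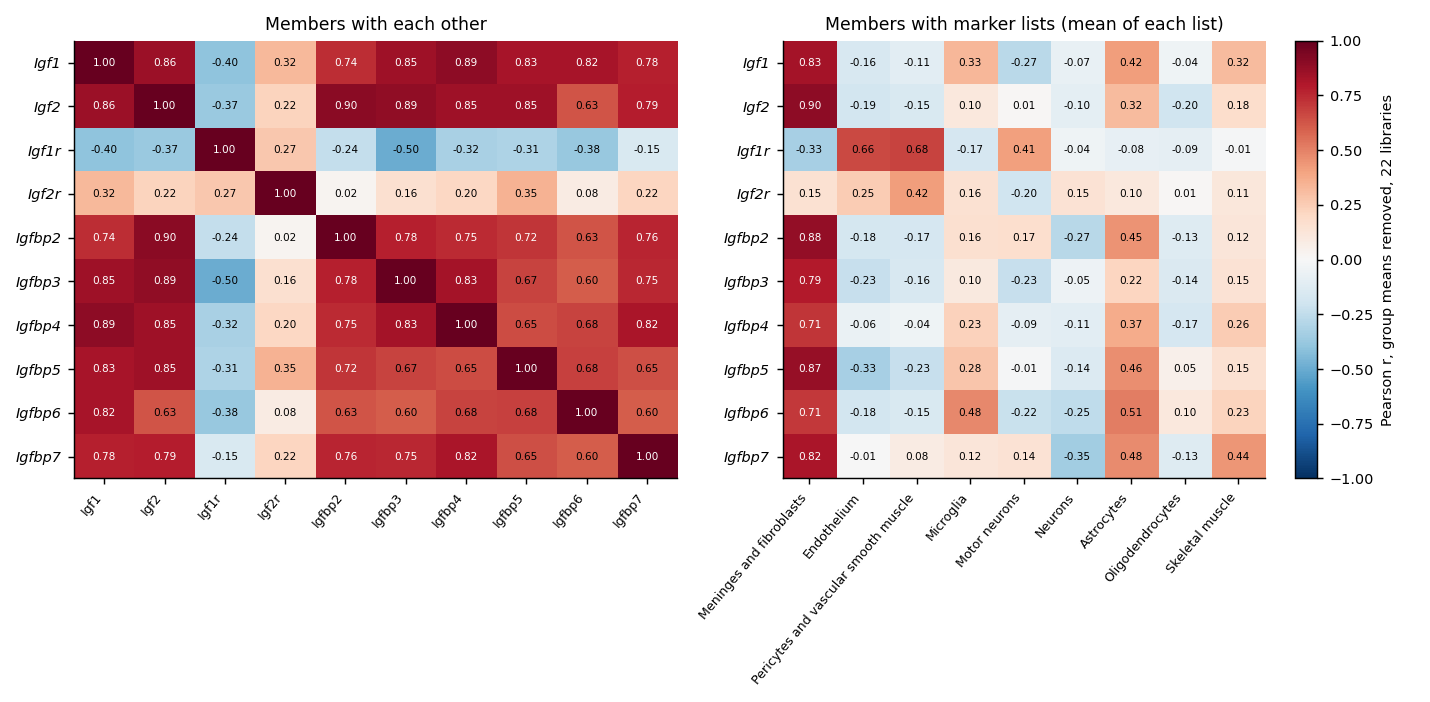
Pearson r between members, and of members with 9 marker lists, over 22 libraries with group means removed. The 28 pairs of ligands and binding proteins lie between 0.60 and 0.90, while the 17 pairs with Igf1r or Igf2r lie between -0.50 and 0.35.

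The genes most like each member were found among the other genes kept over the 22 libraries, on the same values. Igf2 was most like the collagens Col1a1 (r 0.96), Col3a1 and Col8a2. Igf1 was most like Scara5 (0.92) and Fkbp9, and Igfbp4 like Ltbp1 (0.90) and Sfrp1. Col8a2 and Gpc3 were among the 3 genes most like Igfbp3. Igfbp2 was most like the fibronectin gene Fn1 (0.92), Bmp6 and Col6a1, and Igfbp5 like the proteoglycan gene Bgn (0.92), Col14a1 and Lox. Igfbp6 was most like Aebp1 (0.86), Scara5 and Akr1c14, and Igfbp7 like Ahnak (0.90), Tgfbr3 and Col6a2. The receptors had other neighbours, which were Myo9b (0.89), Dpysl2 and Kif1b for Igf1r and Ncoa5 (0.80), Galnt15 and Nav2 for Igf2r.

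Other genes of the pathway were taken from 7 lists, whose counts in males stand beside the 13.4% of all genes called there. Of carriers, relatives and proteases of the binding proteins 3 of 9 were tested in males and 1 was called up. It was Pappa2, the protease that cuts Igfbp3 and Igfbp5, with 3.28 ± 1.62 CPM (SD, n = 5) in intact and 8.42 ± 2.40 CPM (SD, n = 5) in GDX males. Its log2 fold change was 1.37 (SE 0.32, edgeR adjusted p 0.0176), and between intact sexes it was lower in males (-1.36, adjusted p 0.0920). Of the growth hormone axis 1 of 6 was called up in males, the kinase gene Jak2 (0.24, adjusted p 0.0273). Of 10 receptor adaptors 1 was called up, Irs3 (0.60, adjusted p 0.0817), from 80 reads over intact and 129 over GDX males. Of 20 genes of the PI3K-AKT-FOXO-mTOR chain 1 was called up, the transcription factor gene Foxo1 (0.20, adjusted p 0.0984), and 2 down, the kinase genes Mtor (-0.19, adjusted p 0.0586) and Gsk3b (-0.12, adjusted p 0.0938). The called shares of the adaptors, the growth hormone axis and the PI3K chain were near that of all genes.

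The insulin receptor gene Insr, the only one of its list tested in males, was not called (-0.07, edgeR adjusted p 0.551), nor was Igf2bp2, which binds Igf2 mRNA (0.36, adjusted p 0.401). Of 4 genes of the mannose-6-phosphate pathway, which supplies the other ligand of Igf2r, 0 were called in males. The median log2 fold change in males was -0.04 over the PI3K chain, -0.02 over the adaptors and 0.10 over the growth hormone axis, beside 0.78 over the members. In females 0 genes of these 7 lists were called by edgeR, the nearest being the protease gene Htra1 (-0.26, adjusted p 0.115), and for the difference between responses 0 were. Between intact sexes 1 gene of the PI3K chain was called, Pdpk1, higher in males (0.16, adjusted p 0.0739). Between gonadectomized sexes 0 of the list genes were called.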

How the data were processed

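RNA of 22 rats was read from the raw read counts per gene that the authors deposited, 1 column per rat and no normalization. All 32883 rows gave text in the place of the symbol, which was not checked to be a gene symbol. Of the columns 0 were unused, and 0 pairs of libraries were identical. The submitters' processing notes name FastQC, TopHat2 2.0.13, Subread and edgeR on build Rnor_6.0, while the paper's methods name Trimmomatic, Hisat2 and featureCounts, and which made the counts is not known. The library kit is given as Truseq by the labels and as SMARTer Pico by the paper. Settings for strand, multi-mapping and overlapping reads are not given in these sources. Reads carry no molecular identifiers, so read counts are not counts of molecules.

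Groups follow the column names, where the intact males are spelled "Inact". The members and lists were chosen with earlier results of these data known. Analysis used R 4.3.3, edgeR 4.0.16 (TMM, filterByExpr, glmQLFit, glmQLFTest), limma 3.58.1, DESeq2 1.42.0, Python 3.11.15 and matplotlib 3.10.9. Each comparison of 2 groups was fitted on those groups, and the difference between responses on 22 rats, with Benjamini-Hochberg adjustment over all genes tested and calls at adjusted p under 0.1. The standard error is the log2 fold change over the root of F, and 95% intervals use the total degrees of freedom of the fit. Log2 CPM for correlations used a prior count of 2. The steps were tested on simulated data.

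Named genes are the 10 members, every gene of 7 pathway lists called in the male, female or difference test (up to 5 per list), the 3 genes most correlated with each member, and the most abundant and defining genes of 10 marker lists. Further genes named (Insr, Igf2bp2, Htra1, Pdpk1) were chosen after their values were seen. Alternatives were RLE factors, DESeq2, the edgeR exact test, no filter, all 22 rats in 1 fit, fragment class as a term, shorter libraries alone, the meninges list as a term, rat number as a replicate block, and each rat left out. The list genes Pappa, Tmem219, Irs4, H19, Col1a2, Pecam1, Itgam and Myh4 were not analysed here. Results that need items withheld for evaluation, those of 1 marker list among them, are left out.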

Additional observations from a re-analysis of the deposited data

Results flagged for a closer look

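Igf1 in intact male 6 lay far below the other intact males, at 2.04 CPM against 4.76 to 5.33 CPM in the other 4. It was the 1 library found when the lowest and highest value of each of 40 groups, 10 members in 4 groups, were compared with their neighbours. By chance about 1 group in 20 would be found, so 1 library in 40 groups does not exceed that rate. Intact male 6 was also the lowest intact male on the meninges list. With each of the 10 male rats left out in turn, intact male 6 among them, Igf1 kept its call (log2 fold change 0.82 to 1.14, edgeR adjusted p at most 0.0577). Without both intact male 6 and GDX rat 1 the log2 fold change was 0.95 (edgeR adjusted p 0.00457). That setting was chosen after seeing the data, and GDX rat 1 was the lowest GDX library for Igf1.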

How the results depend on the processing

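In males the count of members called stayed within 1.5 times of 6 under all alternatives run except the meninges list as a term, which gave 0 members and 4 of all genes. The count over all genes, 1995, was 796 with fragment class as a term, 440 with shorter libraries alone and 1274 with the replicate block. Among members called, signs changed with the meninges list as a term for Igf1 (-0.0277), Igfbp2 (-0.0573) and Igfbp5 (-0.121) in males. Between intact sexes they changed for Igf1 (0.44), Igf2 (0.80) and Igfbp2 (0.29). The list did not overlap between the groups in either comparison, so these signs cannot be read as a direction. Among members not called, signs changed with this term for Igfbp3 (-1.07), Igfbp6 (-0.73) and Igf1r (0.14) in males and for Igfbp2 (-0.07) in females. Between intact sexes they changed for Igfbp3 (0.59), Igfbp4 (0.45), Igfbp5 (0.87), Igfbp6 (0.30) and Igf1r (-0.13). For the difference between responses they changed for Igf1 (-0.31), Igf2 (-0.36), Igf1r (0.09), Igfbp2 (-0.13), Igfbp3 (-1.33), Igfbp5 (-0.49) and Igfbp6 (-0.69). In females 0 members were called under every alternative, while the count over all genes, 5, was 174 with DESeq2, 95 with the exact test, 11 without a filter, 9 with all 22 rats in 1 fit, 3 with fragment class, 12 with the meninges list and 0 with the replicate block. For the difference between responses the count over all genes, 18, was 243 with DESeq2, 33 without a filter, 6 with fragment class, 5 with shorter libraries alone, 1 with the meninges list and 0 with the replicate block. Between intact sexes members fell from 4 to 0 with shorter libraries alone, with the meninges list and with the replicate block, and all genes from 599 to 34, 21 and 255. Between gonadectomized sexes members fell from 1 to 0 with all 22 rats in 1 fit and with the replicate block, and the count over all genes, 35, was 130 with DESeq2, 88 with the exact test, 61 with all 22 rats and 155 with the meninges list.

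With each rat left out in turn, members called ranged from 5 to 7 in males, 0 to 0 in females, 0 to 1 for the difference, 1 to 7 between intact sexes and 0 to 1 between gonadectomized sexes. All genes called ranged from 1202 to 2446, 0 to 113, 1 to 275, 352 to 777 and 23 to 44 in the same order. With the library of each group farthest from its median on the meninges list left out, chosen after seeing the data, 3 genes were called in females, 526 with 2 members for the difference and 59 between gonadectomized sexes. In the replicate block, rats of like number were paired, although correlations of same-numbered rats after removing group means did not exceed 0.0626 and the numbers are only names. With it Igfbp4 lost its call in males (adjusted p 0.141). Shorter libraries alone leave 2 intact rats a sex, and within each sex the contrast with class as a term rests on the same intact rats. The cause of these changes was not tested. Igfbp4 and Igfbp3 were read thinly, with as few as 9 and 13 reads in intact male 6.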

Other observations

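By gene order in RefSeq GRCr8, Igfbp2 and Igfbp5 lie next to each other on chromosome 9, and 5 of the 6 binding protein genes have a tensin gene within 3 protein-coding genes. Igf2 lies near Ins2 and Th on chromosome 1, and over all 22 libraries Ins2 had 1 read and Th 112.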
